A study of Rattus norvegicus with 6 samples.

Results

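The genes studied here were the microtubule-associated proteins (MAPs) Map2, Mapt, Map4, Map1a, Map1b and Map6 and the stathmins Stmn1, Stmn2, Stmn3 and Stmn4, chosen by name. The choice was made with earlier results of these data known. All 10 were found among the 25689 genes of the count table, each under 1 symbol, and all 10 passed the filter on low counts that left 14919 genes for testing. RNA came from sensory neurons of the dorsal root ganglia (DRGs) at L1-L2, isolated from SHRs, the Spontaneously Hypertensive Rats strain, which has inherited high blood pressure. In 3 samples the perirenal adipose tissue had been removed surgically (PRATA), and the other 3 came from rats with a sham operation, all collected 4 weeks later. The labels give all 6 as wild type with an age of 6 to 8 weeks, although the paper's methods describe rats that were older at purchase, and the 2 groups share the strain, the ganglia and the isolation. Collagenase and trypsin were used to dissociate the tissue, and neurons were parted from glia by how fast cells attach to a dish, a step that need not remove every other cell. The design text counts 3 rats per group, as many as there are samples, while no label ties a sample to an animal, so that p-values measure the spread between these samples, part of which may be technical.

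MAPs bind along the microtubule lattice and stabilise or bundle it, and neurons use different MAPs in different compartments, with MAP2 in cell bodies and dendrites and tau, the product of Mapt, mainly in axons. Stathmins bind free tubulin dimers and promote microtubule disassembly, and their activity is switched off by phosphorylation. In DRG neurons, whose long axons carry no true dendrites, MAP1B and the stathmin STMN2 are known for their part in axon growth and upkeep. The question was how the RNA of these genes compared between PRATA and sham, and whether Map2 stood apart from its relatives.

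Promoter windows were available for 5 of the 10 genes, and 3 are shown: those of Map1a and Map1b, the members whose log2 CPM ran closest to that of Map2, and that of Stmn1, a stathmin whose groups did not overlap. Each is the 250 bases before the RefSeq start on GRCr8, read 5′ to 3′ on the gene's strand, at chr3:128722445-128722694 (plus strand) for Map1a, chr2:32644472-32644721 (minus strand) for Map1b and chr5:151964929-151965178 (plus strand) for Stmn1. Capitals mark matches, on either strand, to the letters of the TATA box (TATAAA), the CCAAT box (CCAAT), the GC box (GGGCGG), the E-box (CACGTG) and the CRE (TGACGTCA), of which the E-box and the CRE share the letters ACGT.
Map1a: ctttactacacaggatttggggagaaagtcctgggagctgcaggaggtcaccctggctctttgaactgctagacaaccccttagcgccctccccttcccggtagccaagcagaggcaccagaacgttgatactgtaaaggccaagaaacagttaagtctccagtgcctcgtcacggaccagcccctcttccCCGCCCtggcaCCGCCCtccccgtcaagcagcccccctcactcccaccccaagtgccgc
Map1b: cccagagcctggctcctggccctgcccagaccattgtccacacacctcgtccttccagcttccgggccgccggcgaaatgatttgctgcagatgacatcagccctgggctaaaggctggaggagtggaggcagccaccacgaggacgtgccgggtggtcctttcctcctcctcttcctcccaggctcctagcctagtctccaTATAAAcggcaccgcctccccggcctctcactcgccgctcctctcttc
Stmn1: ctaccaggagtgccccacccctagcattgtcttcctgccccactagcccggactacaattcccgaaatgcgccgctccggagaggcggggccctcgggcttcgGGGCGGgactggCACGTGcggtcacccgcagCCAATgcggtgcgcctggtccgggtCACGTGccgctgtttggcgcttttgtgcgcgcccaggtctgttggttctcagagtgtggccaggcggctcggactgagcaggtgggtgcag

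The window of Map1a held 2 matches to the GC box letters GGGCGG, which 30.5% of all 33469 rat windows contain. Map1b held 1 match to the TATA box letters TATAAA, found in 12.9% of windows. Stmn1 held 2 matches to the E-box letters CACGTG, found in 5.59% of windows, with 1 GC box match and 1 match to CCAAT, which 34.0% of windows contain. The window of Stmn3 held 1 GC box match and that of Map2 held none of the 5 motifs, and TGACGTCA, found in 1.59% of windows, was in none of the 5 windows. GC content was 60.4% for Map1a, 63.6% for Map1b, 67.6% for Stmn1, 59.2% for Stmn3 and 32.0% for Map2, beside a median of 51.2% over all windows. Of all windows, 2.9% had a lower GC content than that of Map2. Whether the RefSeq start of that window is the one used in these neurons was not tested. The matches describe letters in the reference and not sites.

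Levels are given as CPM, the counts of a sample scaled by its TMM-normalized library size, which are not scaled to gene length, so that levels of different genes are not compared. The deposited values are raw read counts per gene, and the 6 samples had total counts of 5892967 to 15226952, where a floor of 3 counts is 0.207 to 0.468 CPM and covers counting error only. PRATA replicate 3 and sham replicate 1 stood apart in the reads of the 7SL RNA genes, with 98.9% and 99.5% of them on 1 copy, against 47.3% to 49.3% in the other 4 samples. In bulk samples, fewer cells of a type and less RNA per cell cannot be told apart.

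Of the 10 genes, 9 had a higher fitted level after PRATA and Map4 a lower one, with a median log2 fold change of 0.56, beside 0.02 and 52.01% of genes higher over all genes tested. No member passed an adjusted p under 0.05 with edgeR's quasi-likelihood test, beside 0% of all genes tested in either direction. At an unadjusted p under 0.05, 6 of the 10 were higher after PRATA (Map2, Mapt, Map1a, Stmn1, Stmn3 and Stmn4), beside 8.19% of genes tested, and 0 were lower, beside 10.1%. The 3 PRATA samples lay above the 3 sham samples without overlap for 5 members (Map2, Map1a, Stmn1, Stmn2 and Stmn3), beside 11.6% of genes tested, and below them for 0, beside 11.2%. As the 10 genes were chosen with earlier results of these data known, these contrasts describe the list and do not test it. The count of 6 depended on single samples, and the share of all genes tested that were called higher moved in the same direction in each of these fits. Without sham replicate 3 the count was 0, beside 3.76% of genes tested, and without PRATA replicate 1 it was 1, beside 3.47%. It was 1 without sham replicate 1 (6.48%), 2 without PRATA replicate 3 (5.55%), 3 without PRATA replicate 2 (7.53%) and 8 without sham replicate 2 (13.4%). In the 4 samples without PRATA replicate 3 and sham replicate 1 it was 1, beside 5.98%, and with library size alone as the scaling it was 2, beside 5.6%.

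**Figure D1:**
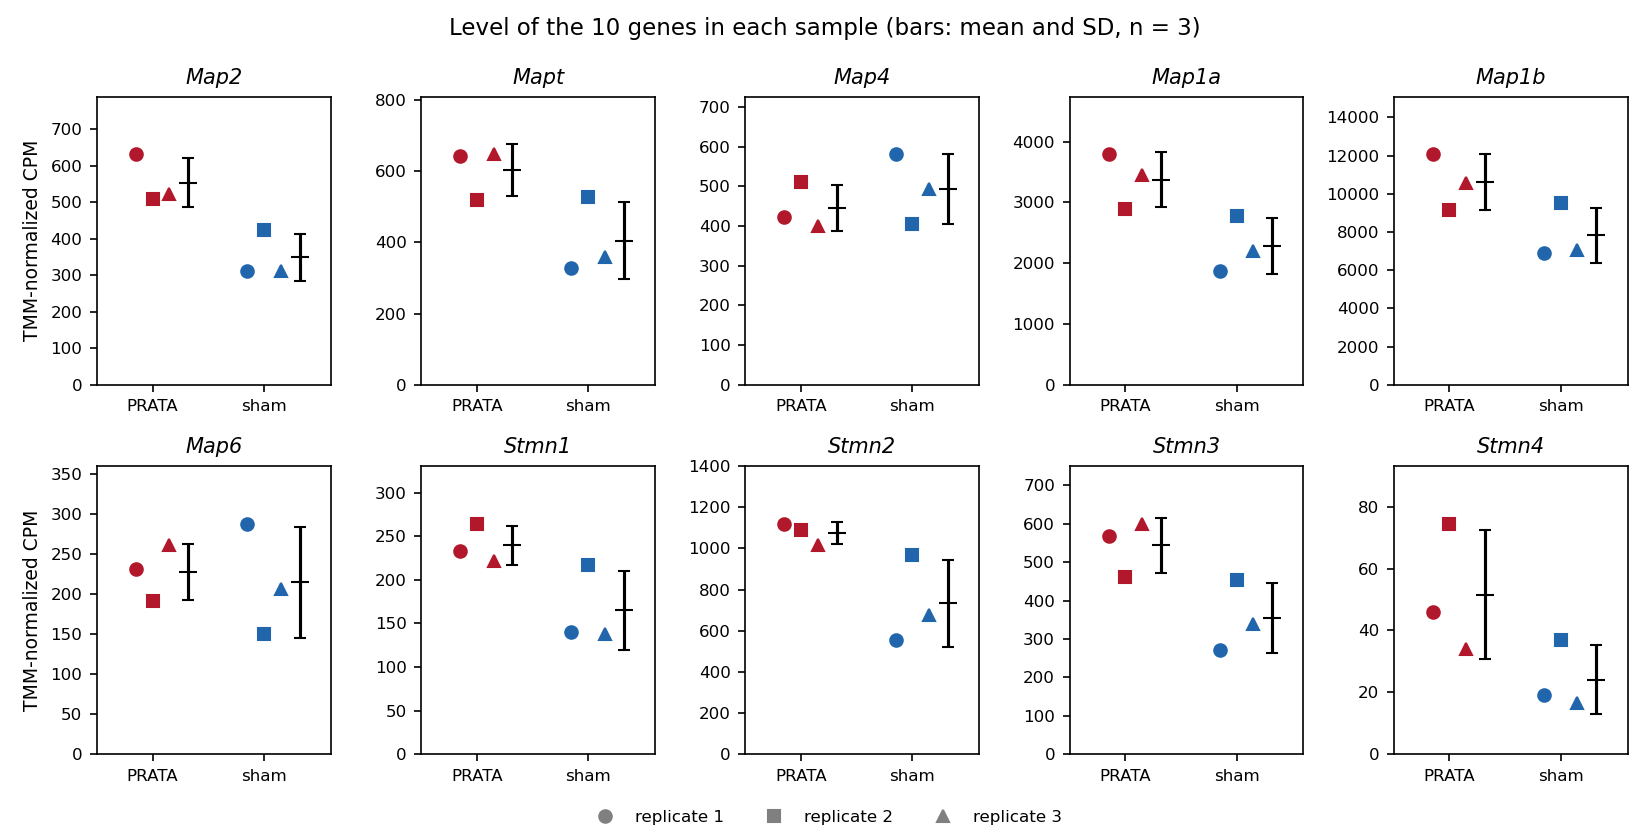
TMM-normalized CPM of each of the 10 genes (vertical axes from 0) in each PRATA sample (red) and sham sample (blue), with the mean and SD of each group as bars (n = 3) and the replicate number as the marker shape. Sham replicate 2, the blue square, is the highest sham sample in 8 panels and the lowest in those of Map4 and Map6.

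Map2 (ENSRNOG00000011841) was at 632, 508 and 521 CPM in PRATA replicates 1, 2 and 3 and at 313, 423 and 312 CPM in sham replicates 1, 2 and 3. Every PRATA sample was above every sham sample, and the lowest PRATA sample was 1.20 times the highest sham sample, the widest such gap among the 10 genes. The means were 554 ± 67.9 and 349 ± 63.9 CPM (SD, n = 3), a log2 fold change of 0.67 (standard error 0.21, 95% interval 0.17 to 1.16), with an unadjusted p of 0.0143 and an adjusted p of 0.192 from edgeR's quasi-likelihood test. The exact two-sided permutation test gave p = 0.1, the smallest that 3 samples against 3 allow. Of all genes tested, 92.52% had a lower log2 fold change than Map2. The paper had already named Map2 among the genes higher after PRATA in these data. Its gap and rank therefore describe Map2 and do not test it. Map2 had an adjusted p of 0.0455 with DESeq2, under which 1.51% of genes tested were called higher, and of 0.0360 with limma voom and sample quality weights, under which 3% were called higher.

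Mapt (ENSRNOG00000005133), which encodes tau, was at 641, 518 and 647 CPM after PRATA and at 327, 527 and 359 CPM after the sham operation. Sham replicate 2 was above PRATA replicate 2, so that the groups overlapped, while the other 2 sham samples lay below all PRATA samples. The log2 fold change was 0.57 (standard error 0.24, 95% interval 0.02 to 1.13, unadjusted p = 0.0451, edgeR adjusted p = 0.263). With limma voom and sample quality weights it was 0.71, with an adjusted p of 0.0495.

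Map4 (ENSRNOG00000020748) encodes the relative of MAP2 and tau that is also found widely outside neurons. It was at 424, 511 and 401 CPM after PRATA and at 581, 405 and 494 CPM after the sham operation, with the highest value in sham replicate 1 and the groups interleaved. The log2 fold change was -0.15 (standard error 0.22, 95% interval -0.65 to 0.35, unadjusted p = 0.511, edgeR adjusted p = 0.746), and it was 0.05 (edgeR adjusted p = 0.962) in the 4 samples without PRATA replicate 3 and sham replicate 1.

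Map1a (ENSRNOG00000014230), whose product is a long lattice-binding MAP of mature neurons, was at 3793, 2885 and 3446 CPM after PRATA. In the sham samples it was at 1877, 2782 and 2196 CPM, so that the groups did not overlap, with a margin of 1.04 times between PRATA replicate 2 and sham replicate 2. The log2 fold change was 0.56 (standard error 0.24, 95% interval 0.00 to 1.12, unadjusted p = 0.0498, edgeR adjusted p = 0.272).

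Map1b (ENSRNOG00000017428), the MAP of growing axons, was at 12076, 9133 and 10587 CPM after PRATA and at 6909, 9496 and 7057 CPM after the sham operation. It took 0.939% to 1.15% of all counts in the PRATA samples and 0.657% to 1.03% in the sham samples. Sham replicate 2 lay above PRATA replicate 2, and the log2 fold change was 0.44 (standard error 0.25, 95% interval -0.13 to 1.01, unadjusted p = 0.115, edgeR adjusted p = 0.377).

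Map6 (ENSRNOG00000027204), whose product makes microtubules resistant to cold, was at 231, 192 and 261 CPM after PRATA and at 288, 151 and 207 CPM after the sham operation. The groups overlapped over most of their range, and the highest value of each group was in the sample that stood apart by 7SL RNA. The log2 fold change was 0.08 (standard error 0.26, 95% interval -0.52 to 0.68, unadjusted p = 0.760, edgeR adjusted p = 0.895). It was -0.03 without PRATA replicate 3 and -0.12 without sham replicate 2, so that its direction depended on single samples.

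Among the stathmins, Stmn1 (ENSRNOG00000016810), the cytosolic form that is also found in dividing cells, was at 233, 265 and 221 CPM after PRATA and at 140.5, 217 and 138 CPM after the sham operation. All PRATA samples were above all sham samples, with 1.02 times between PRATA replicate 3 and sham replicate 2. Stmn1 had a log2 fold change of 0.54 (standard error 0.22, 95% interval 0.02 to 1.05, unadjusted p = 0.0432, edgeR adjusted p = 0.259). Without sham replicate 2 it was 0.79 with an edgeR adjusted p of 0.0482, in a fit that called 1.05% of 15438 genes higher, and Stmn1 was the 1 member called there.

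Stmn2 (ENSRNOG00000011705), the membrane-anchored stathmin of axons and growth cones, was at 1120, 1087 and 1014 CPM after PRATA. The sham samples were at 557, 968 and 676 CPM and spread more widely, with an SD of 211 CPM against 54.0 CPM. The groups did not overlap, and the log2 fold change was 0.55 (standard error 0.25, 95% interval -0.02 to 1.12, unadjusted p = 0.0582, edgeR adjusted p = 0.289).

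Stmn3 (ENSRNOG00000013657), a close relative of Stmn2, was at 568, 462 and 600.2 CPM after PRATA and at 273, 454 and 339 CPM after the sham operation. The groups did not overlap, with 1.02 times between PRATA replicate 2 and sham replicate 2. Stmn3 had a log2 fold change of 0.61 (standard error 0.24, 95% interval 0.06 to 1.17, unadjusted p = 0.0350, edgeR adjusted p = 0.241).

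Stmn4 (ENSRNOG00000053334), the remaining neuronal stathmin, had the fewest reads of the 10 genes, with 174 to 935 counts per sample. It was at 46.0, 74.5 and 34.2 CPM after PRATA and at 19.2, 36.8 and 16.4 CPM after the sham operation, so that sham replicate 2 was above PRATA replicate 3. Its log2 fold change of 1.10 was the largest of the 10 in the fit over all 6 samples (standard error 0.38, 95% interval 0.23 to 1.98, unadjusted p = 0.0195, edgeR adjusted p = 0.211). Without PRATA replicate 2 it was 0.74, and with limma voom and sample quality weights it was 1.32 with an adjusted p of 0.0437.

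**Figure D2:**
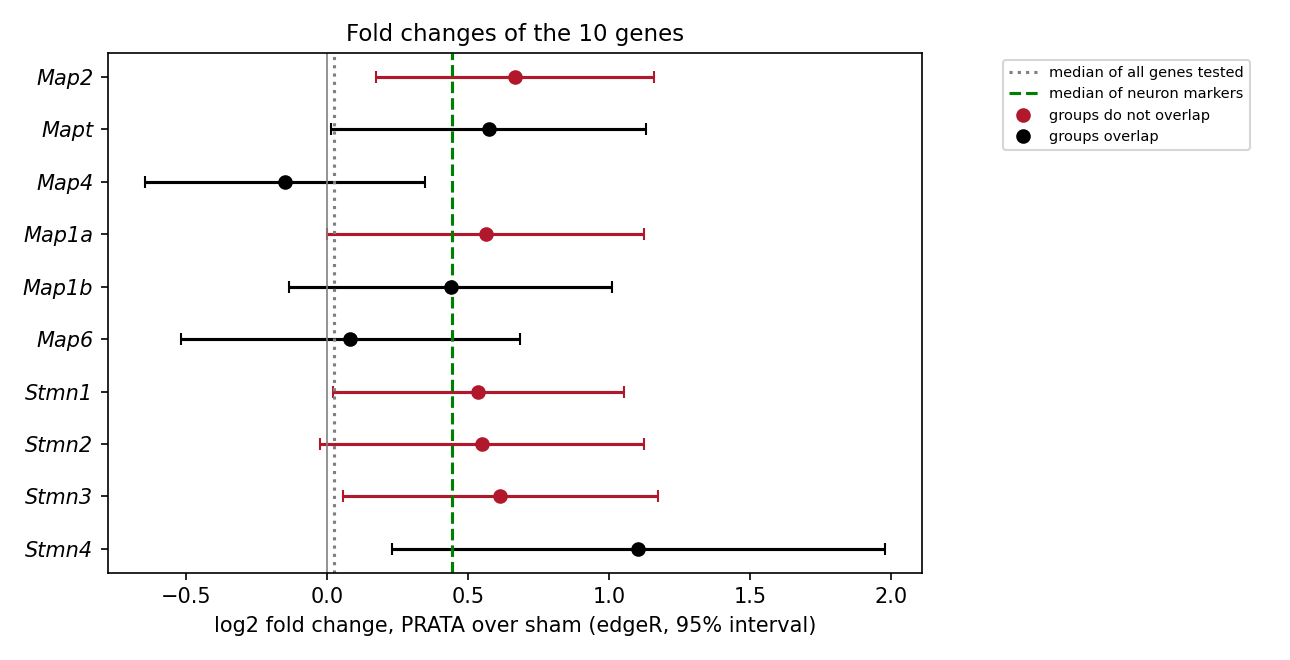
Log2 fold change of each gene, PRATA over sham, from edgeR with its 95% interval (horizontal axis), coloured red where the groups do not overlap and black where they do, with the median of all genes tested (0.02, dotted) and of 19 neuron markers (0.44, dashed). Map4 and Map6 lie nearest 0, Stmn4 is farthest right with the widest interval, and all 10 intervals overlap one another.

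Map2 was then set beside each relative as a log2 ratio within a sample, a value that does not depend on the scaling between samples. Groups did not overlap for 1 of the 9 ratios, beside 46.1% of the ratios of Map2 to all other genes tested. That ratio was to Map1b, at -4.26, -4.17 and -4.34 after PRATA and -4.46, -4.49 and -4.50 after the sham operation. The difference was 0.23, higher after PRATA (exact two-sided permutation p = 0.1, Benjamini-Hochberg adjusted over the 9 ratios 0.562). Against Mapt, Map1a, Stmn1, Stmn2 and Stmn3 the ratio differed by 0.08, 0.10, 0.11, 0.09 and 0.04, each with overlapping groups and an exact permutation p of 0.5, or of 1 for Stmn3. The ratio to Mapt, for example, had an SD of 0.166 in the PRATA samples and 0.126 in the sham samples.

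Differences in the ratio were larger, and the samples more scattered, against Map4, Map6 and Stmn4. Map2 over Map4 was at 0.57, -0.01 and 0.38 after PRATA and -0.89, 0.06 and -0.66 after the sham operation, a difference of 0.81 with overlap through sham replicate 2 (exact permutation p = 0.2, adjusted 0.562). Map2 over Map6 was at 1.45, 1.40 and 0.996 after PRATA and 0.12, 1.49 and 0.59 after the sham operation, a difference of 0.55 (exact permutation p = 0.4, adjusted 0.562). The highest of the 6 ratios to Map6 was in sham replicate 2, and the difference was 0.24 without sham replicate 1 and 0.93 without sham replicate 2. Map2 over Stmn4 differed by -0.42, with the lowest ratio, 2.76, in PRATA replicate 2 (exact permutation p = 0.4, adjusted 0.562). Without PRATA replicate 2 it differed by -0.06, and without sham replicate 3 by -0.27.

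**Figure D3:**
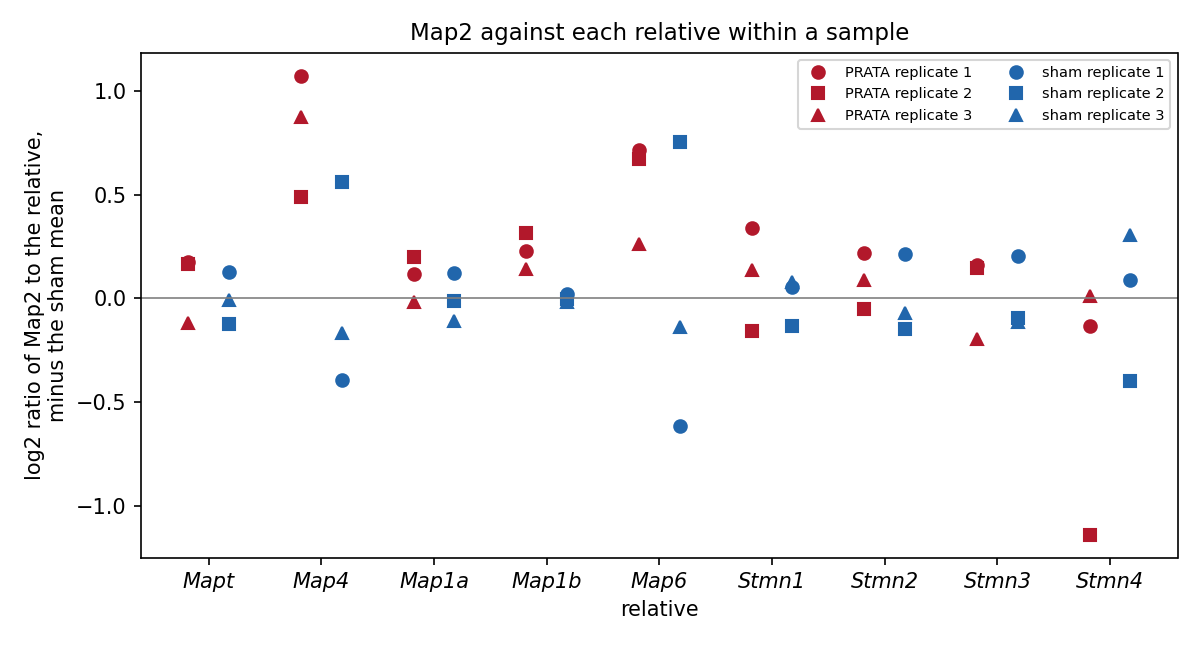
Log2 ratio of Map2 to each relative within a sample, minus the mean of the sham samples (vertical axis), for PRATA samples (red) and sham samples (blue), with the replicate number as the marker shape. The groups are apart for Map1b alone, by 0.23 between the means, and the points of Map4, Map6 and Stmn4 are spread most widely.

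Over all 45 pairs of the 10 genes, 2 log2 ratios had groups that did not overlap, beside 20.9% of the 111280821 pairs of genes tested. The second was Map1a over Map1b, at -1.67, -1.66 and -1.62 after PRATA and -1.88, -1.77 and -1.68 after the sham operation, a difference of 0.13.

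Across the 6 samples, the log2 CPM of Map2 had a Pearson r of 0.965 with Map1b, 0.962 with Map1a, 0.945 with Mapt, 0.930 with Stmn2, 0.921 with Stmn3, 0.898 with Stmn1 and 0.821 with Stmn4. It was -0.087 with Map6 and -0.633 with Map4. These values describe 6 samples that share the 2 groups and their libraries. Ranked among 14918 genes, Map1b stood at 155 and Map1a at 182, so that many genes outside the family followed Map2 more closely. The 5 most alike were Mk1 (r = 0.998), Snx21 (0.997), Camta1 (0.997), Osbpl3 (0.996) and Tmed4 (0.996). Camta1 was at 153, 122 and 124 CPM after PRATA and at 69.5, 92.7 and 70.9 CPM after the sham operation, with the same order of high and low samples as Map2 except between the lowest pair.

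Markers of neurons were also higher after PRATA. All 19 neuron markers had a positive log2 fold change, with a median of 0.44, and 5 passed an unadjusted p under 0.05 (among them Elavl3, Tubb3, Prph and Pou4f1), while 0 passed an adjusted p under 0.05 with edgeR. Of all genes tested, 52.01% had a positive log2 fold change and 8.19% were higher at an unadjusted p under 0.05. The summed level of the neuron markers was 14436 to 22236 CPM in the PRATA samples and 10252 to 15550 CPM in the sham samples. The mean log2 CPM of the markers was 8.92, 8.50 and 8.96 after PRATA and 7.99, 8.56 and 8.24 after the sham operation, with sham replicate 2 again the highest sham sample and above PRATA replicate 2. The defining neuron markers were thus present in every sample.

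When the mean of the neuron markers was subtracted within each sample, the groups overlapped for all 10 genes, so that none lay apart in either direction. On this scale the PRATA samples all lay above the sham samples for only 0.523% of genes tested. The overlap therefore does not mark these 10 genes out from others. The share that lay below was not counted. The remaining difference was 0.14 for Map2, 0.07 for Mapt, 0.04 for Map1a, -0.09 for Map1b, 0.03 for Stmn1, 0.06 for Stmn2 and 0.11 for Stmn3, with exact permutation p from 0.2 to 0.9. For Stmn4 it was 0.56 (exact permutation p = 0.5), with PRATA replicate 2 highest at -2.28 and the other 5 samples between -4.16 and -3.34. For Map4 it was -0.67 (exact permutation p = 0.2), from -0.31 to 0.49 after PRATA and from 0.10 to 1.20 after the sham operation. For Map6 it was -0.41 (exact permutation p = 0.5), from -1.07 to -0.92 after PRATA and from -1.32 to 0.19 after the sham operation. Adjusted over the 10 genes, these exact permutation p-values were 0.625 to 0.9.

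The overlap depended on how the neuron markers were summarised. With their median in place of their mean, the groups of Mapt, Map1a and Stmn3 did not overlap, with differences of 0.18, 0.16 and 0.22 (exact permutation p = 0.1 each), beside 1.7% of genes tested that lay apart and higher. Stmn3, for example, was then at -0.23, -0.18 and -0.14 after PRATA and -0.48, -0.41 and -0.32 in the sham samples. Against this median, Map2 differed by 0.26, Stmn1 by 0.15, Stmn2 by 0.17 and Stmn4 by 0.68, each with overlapping groups, and Map1b by 0.03. With the mean taken without the neurofilament genes, Stmn3 alone had groups that did not overlap, by 0.12 (exact permutation p = 0.1), beside 0.731% of genes tested that lay apart and higher.

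**Figure D4:**
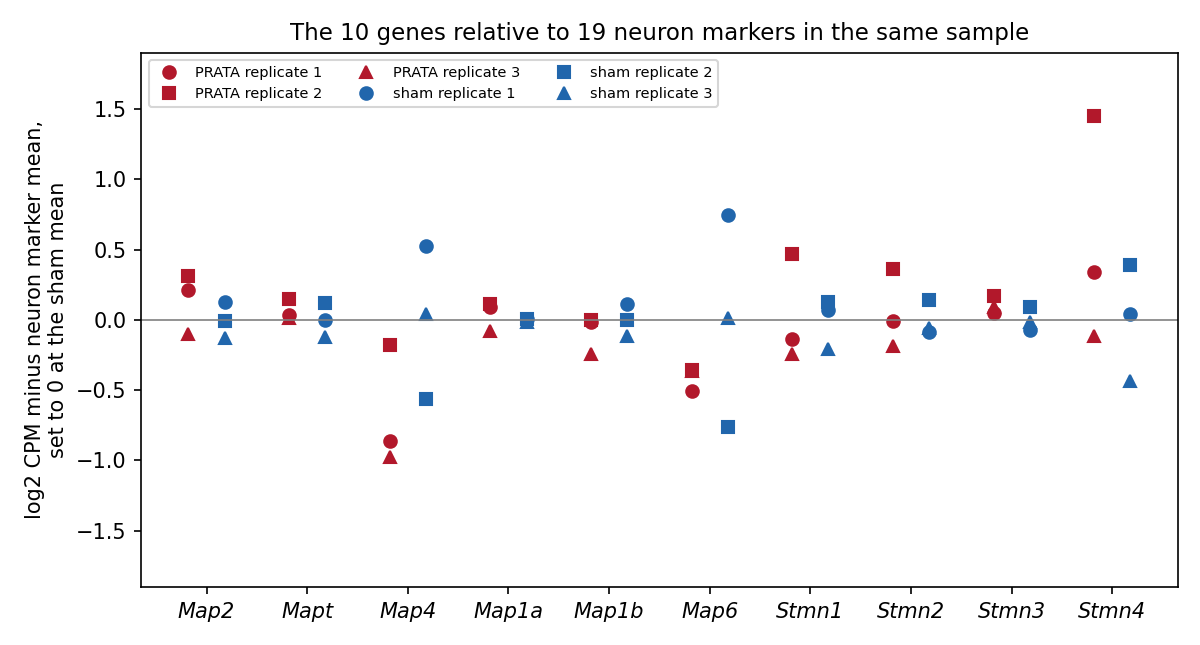
Log2 CPM of each gene minus the mean log2 CPM of 19 neuron markers in the same sample, set to 0 at the sham mean (vertical axis), for PRATA samples (red) and sham samples (blue), with the replicate number as the marker shape. Red and blue points overlap for every gene on this scale, where only 0.523% of genes tested lay apart and higher. With the median of the markers in place of the mean, those of Mapt, Map1a and Stmn3 did not overlap. On the scale shown, the points of Map1a and Stmn3 lie closest together, and Stmn4 in PRATA replicate 2 is the highest point.

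Markers of other cells moved in both directions, where 52.01% of all genes tested had a positive log2 fold change. All 6 satellite glia markers were lower after PRATA in the fit, with a median log2 fold change of -0.53 and 0 at an unadjusted p under 0.05, at summed levels of 3029 to 5676 CPM after PRATA and 3972 to 7922 CPM after the sham operation. Of 8 fibroblast markers tested, 1 was higher, the median was -0.53, and the sums were 337 to 1998 and 929 to 1859 CPM. Postn (log2 fold change -1.78) was the fibroblast marker lower at an unadjusted p under 0.05 with edgeR, without overlap. Schwann cell markers were higher in 8 of 11, with a median of 0.53 and sums of 989 to 1895 and 1006 to 1358 CPM. At an unadjusted p under 0.05 with edgeR, 1 of them was higher (Prx, log2 fold change 1.39) and 1 lower (Sox10, -1.63), both without overlap. Macrophage markers were higher in 8 of 10, with a median of 0.71 and sums of 69.7 to 207 and 47.0 to 114 CPM. Endothelial markers were higher in 6 of 7, with sums of 67.4 to 140.5 and 26.7 to 163 CPM. Of cycling cell markers, 3 of 5 were higher, with a median of 0.02 and sums over the 7 listed of 53.7 to 57.2 and 58.8 to 80.2 CPM. At the same threshold the macrophage marker Lyz2 (log2 fold change 1.14) and the endothelial marker Vwf (1.47) were higher, each with overlap. No cycling cell marker passed it. Over all genes tested, 8.19% were higher and 10.1% lower at this threshold. No marker was at 0 in all samples of a group, and the part of these cells, or of the neuron markers, in the differences of the 10 genes was not tested.

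The other regulators of microtubules were taken from 5 lists, also chosen with earlier results of these data known. The lists held 61 genes, of which 58 were in the table and 55 were tested. Of these, 40 had a positive log2 fold change, with a median of 0.29, and 13 were higher and 2 lower at an unadjusted p under 0.05, with 0 at an adjusted p under 0.05 in edgeR. Groups did not overlap for 18 genes higher after PRATA and for 4 lower. All genes tested gave 52.01% with a positive log2 fold change, 8.19% higher and 10.1% lower at an unadjusted p under 0.05, and 11.6% and 11.2% without overlap. The same shares stand beside the counts of each of the 5 lists below. The count of 13 was 3 without PRATA replicate 1 or 3 (beside 3.47% and 5.55% of genes tested higher), 5 without sham replicate 1 or 3 (6.48% and 3.76%) and 25 without sham replicate 2 (13.4%). The count of 2 was 1 without PRATA replicate 3 or sham replicate 3 and 5 without sham replicate 2. In these fits, in that order, 2000, 1471 and 4254 genes were at an unadjusted p under 0.05 in either direction, with 42.6%, 40.3% and 48.7% of them higher.

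Of 12 further MAPs, 7 had a positive log2 fold change and 3 were higher at an unadjusted p under 0.05. Tppp, which promotes tubulin polymerisation, was at 24.1, 19.1 and 17.9 CPM after PRATA and 11.7, 12.5 and 10.8 CPM after the sham operation, with a log2 fold change of 0.81 (standard error 0.20, edgeR adjusted p = 0.158) and no overlap. Map7, which recruits kinesin to microtubules, was at 123 ± 19.1 and 83.3 ± 5.84 CPM (SD, n = 3; log2 fold change 0.56, edgeR adjusted p = 0.186). Its relative Map7d2 was at 338 ± 26.6 and 223 ± 55.5 CPM (SD, n = 3; log2 fold change 0.60, edgeR adjusted p = 0.228).

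Among 17 tested proteins of microtubule ends, 13 had a positive log2 fold change, 4 were higher and 2 lower at an unadjusted p under 0.05. Nav2, a neuron navigator protein that follows growing ends, was at 368, 429 and 432 CPM after PRATA and 1354, 729.5 and 1625 CPM in the sham samples. The log2 fold change of -1.59 was the largest in size among the 55 genes (standard error 0.31, 95% interval -2.31 to -0.88, unadjusted p = 8.41e-04, edgeR adjusted p = 0.156). The sham samples differed among themselves by more than the PRATA samples. With DESeq2, Nav2 had an adjusted p of 5.86e-05, where 728 of 14919 genes were called in either direction. It was 0.0315 with limma voom and sample quality weights (1173 genes called). Without sham replicate 2, Nav2 had an edgeR adjusted p of 0.0260 (721 of 15438 genes called). Its relative Nav3 was at 93.8, 97.8 and 84.7 CPM after PRATA and 190, 99.9 and 191 CPM after the sham operation, with sham replicate 2 next to the PRATA samples (log2 fold change -0.80, standard error 0.26, edgeR adjusted p = 0.193). Clip2, a linker protein of growing ends, was at 299, 266 and 285 CPM after PRATA and 187.5, 199 and 193 CPM after the sham operation (log2 fold change 0.55, standard error 0.16, edgeR adjusted p = 0.175). The 3 sham samples of Clip2 lay close together.

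Of 12 kinases that act on MAPs or stathmins and their activators, 11 had a positive log2 fold change, with a median of 0.34, and 4 were higher at an unadjusted p under 0.05. The activators of CDK5, a kinase of tau and other MAPs, were among them. Cdk5r2 was at 46.4 ± 5.70 and 31.1 ± 4.20 CPM (SD, n = 3; log2 fold change 0.58, edgeR adjusted p = 0.188) and Cdk5r1 at 15.5 ± 0.763 and 11.1 ± 0.809 CPM (SD, n = 3; log2 fold change 0.48, edgeR adjusted p = 0.237). Mark4, which phosphorylates MAPs at their tubulin-binding repeats, was at 57.7 ± 5.80 and 43.7 ± 3.24 CPM (SD, n = 3; log2 fold change 0.40, edgeR adjusted p = 0.246).

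Of 4 severing enzymes tested, 2 had a positive log2 fold change, 1 of them higher at an unadjusted p under 0.05. Of 10 tubulin modifying enzymes tested, 7 had a positive log2 fold change, and Vash1, which removes the terminal tyrosine of alpha-tubulin, was at 42.6 ± 6.64 and 29.3 ± 4.64 CPM (SD, n = 3; log2 fold change 0.54, edgeR adjusted p = 0.221). The groups did not overlap for Vash1. None of the 10 regulators named here with their values changed direction under the 18 alternatives. They were named because their groups did not overlap in these same samples, so that this was largely set by the choice. Besides Nav2, Tppp (0.0439) and Clip2 (0.0333) had an adjusted p under 0.05 with DESeq2. With voom and sample quality weights, Tppp (0.0394), Clip2 (0.0409), Nav3 (0.0419) and Map7 (0.0451) did. Nav3 also did without sham replicate 2 (edgeR adjusted p = 0.0291). Map7d2, Cdk5r2, Cdk5r1, Mark4 and Vash1 did in none of the alternatives.

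**Figure D5:**
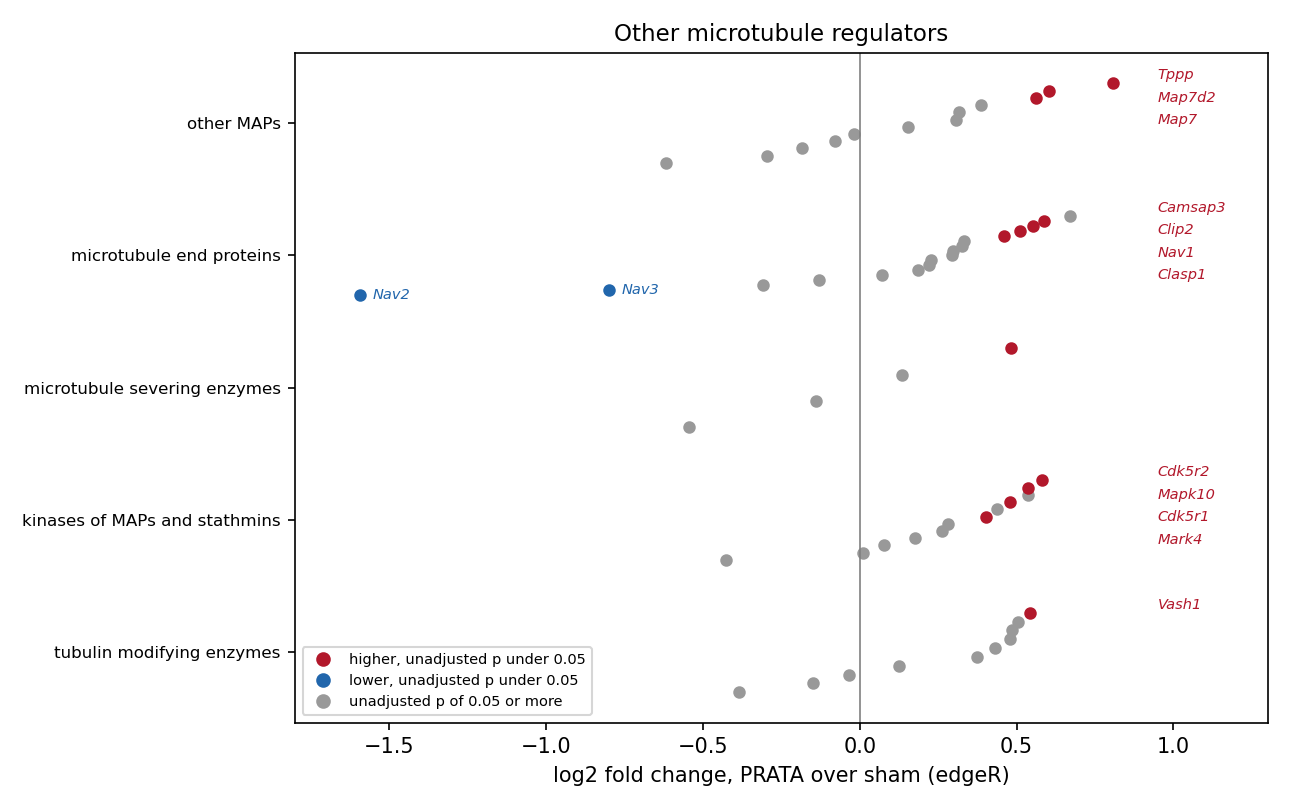
Log2 fold change, PRATA over sham, from edgeR (horizontal axis) of 55 other microtubule regulators by list, in red where higher and in blue where lower at an unadjusted p under 0.05, with those genes named outside the severing enzymes. Nav2 at -1.59 and Nav3 at -0.80 are the 2 blue points, and the 13 red points lie between 0.40 and 0.81.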

How the data were processed

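RNA of L1-L2 DRG neurons from 3 PRATA and 3 sham SHR samples was sequenced from stranded, rRNA-depleted libraries. The deposited values are raw read counts per gene, made by the authors without normalization. The submitters' processing notes name STAR 2.7.3a, RSEM and DESeq2, with no role given, while the paper's methods name HISAT2, StringTie and Cuffdiff for FPKM values that are not used here. The genome build and annotation are not given in the sources used here, nor is the strand setting of the counting. Of the columns of sample values, 0 were left unused.

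The analysis used edgeR 4.0.16 in R 4.3.3, with DESeq2 1.42.0 and limma 3.58.1 for alternatives. Low genes were removed by filterByExpr (minimum count 10, minimum total 15), scaled by TMM and tested over all genes with the quasi-likelihood test, two-sided, without a covariate, with Benjamini-Hochberg adjustment. Total counts were 8129162, 12209863 and 12892124 in the PRATA samples and 15226952, 5892967 and 10693367 in the sham samples. Sham replicate 2 was the shallowest, so that counting error at a given CPM is largest there, and depth does not measure other spread. Ratios, neuron-marker differences and correlations used log2 CPM with a pseudocount of 0.5, with exact permutation tests of single values. The smallest exact p that 3 samples against 3 allow is 0.1. Groups overlap unless every sample of one lies above every sample of the other.

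The members and the lists of regulators and markers were chosen with earlier results of these data known. Named regulators were, per list, up to 3 genes with the smallest p among those without overlap between the groups and with p under 0.05, and genes like Map2 were the 5 with the highest Pearson r. Some genes that these rules and lists pick are not reported here. Alternatives were other scalings and filters, DESeq2, limma-trend with a pseudocount of 1, voom with sample quality weights, a robust fit, a replicate block, a 7SL covariate, protein-coding genes alone, other neuron references, raw-count ratios, each sample left out and 4 samples alone. The scripts were tested on simulated data. Promoter windows and motif shares came from RefSeq tables (GRCr8), and plots were made in matplotlib 3.10.9 under Python 3.11.15.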

Additional observations from a re-analysis of the deposited data

How the results depend on the processing

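Over 18 alternatives, log2 fold changes ranged from 0.54 to 0.83 for Map2, 0.38 to 0.81 for Mapt, 0.42 to 0.73 for Map1a, 0.31 to 0.60 for Map1b, 0.42 to 0.79 for Stmn1, 0.37 to 0.80 for Stmn2, 0.37 to 0.83 for Stmn3 and 0.74 to 1.53 for Stmn4, with no change of direction. Adjusted p ranged from 0.0360 to 0.557 for Map2. Map4 turned to 0.047 in the 4 samples without PRATA replicate 3 and sham replicate 1, and Map6 ranged from -0.12 to 0.33 with 1 sample left out. The members higher at an unadjusted p under 0.05, 6 of 10, were 2 with library size alone, 1 with the replicate block, 1 in the 4 samples and 0 (without sham replicate 3) to 8 (without sham replicate 2) with 1 sample left out. Members at an adjusted p under 0.05 were 1 with DESeq2 (Map2), 3 with voom and sample quality weights (Map2, Mapt and Stmn4) and 0 to 1 with 1 sample left out, against 0 with edgeR. The 13 other regulators higher were 5 with library size alone, 24 with voom, 3 with the replicate block, 2 in the 4 samples and 3 to 25 with 1 sample left out. The 2 lower were 5 with voom, 1 in the 4 samples, 4 among protein-coding genes alone and 1 to 5 with 1 sample left out. The calls over all genes tested moved too. In either direction, 2734 genes were at an unadjusted p under 0.05 in the main fit, 44.7% of them higher. There were 4606 with voom (50.5% higher), 1528 with the replicate block (40.6%), 2511 with library size alone (33.3%) and 1907 in the 4 samples (46.4%). Protein-coding genes alone gave 2742 of 14000 (42.4%), and fits with 1 sample left out gave 1406 to 4254. The ratio of Map2 to Stmn1 ranged from -0.0078 to 0.24 and that to Stmn3 from -0.0252 to 0.15 with 1 sample left out, while that to Map6 ranged from 0.24 to 0.93 and that to Stmn4 from -0.64 to -0.06. Against the median of the neuron markers in place of the mean, Map1b was at 0.0316, Map2 at 0.26, Mapt at 0.18, Map1a at 0.16, Stmn1 at 0.15, Stmn2 at 0.17 and Stmn3 at 0.22, and the groups of Mapt, Map1a and Stmn3 no longer overlapped. With library size alone, 33.3% of genes at an unadjusted p under 0.05 were higher, against 44.7% with TMM. Without the low-count filter the median over all genes was -0.17, against 0.02, and that of the members 0.58. Deviations of samples with the same number had r of -0.371, -0.078 and -0.352 and no sample correlated best with its own number, so the numbers were not taken to pair samples. With the replicate block, Map2 was at 0.67 (edgeR adjusted p = 0.486). The cause of these changes was not tested. The 10 genes had at least 174 counts in every sample, and the 3 samples per group limit all tests.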
